A study of Mus musculus with 6 samples.

Results

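The genes described here are the collagen chains and the enzymes and chaperones that build collagen, in the livers of 3 BPD and 3 GFP mice. Members were taken from the probe sets that carry exactly 1 gene symbol, where that symbol begins with Col and a digit or belongs to a set of 12 processing genes (P4ha1, P4ha2, Plod1 to Plod3, Serpinh1, Pcolce, Lox and Loxl1 to Loxl4). This gave 47 of 12393 genes and 76 of 20380 probe sets. By type they were 9 fibrillar chains, 8 chains of basement membranes (6 of type IV, with Col15a1 and Col18a1), 19 chains of other types and 11 processing genes. Loxl2 was not analysed here.

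All mice were male KK/H1J animals, a polygenic strain prone to obesity and diabetes, aged 12 to 14 weeks and about 35 g in weight. The BPD mice (numbers 23, 28 and 36) received by tail vein an adenovirus for BPD, a PFK-2/FBPase-2 without its bisphosphatase activity; the intact enzyme both makes and breaks down a sugar phosphate that regulates glycolysis. The GFP mice (numbers 22, 29 and 31) received a control adenovirus for green fluorescent protein at the same stated dose, so both groups carry a virus and no liver without virus is among the samples. Livers were taken on day 7 from freely fed mice, and RNA of each liver was read on 1 one-colour array.

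Collagens are proteins of 3 chains wound into a helix. Fibrillar collagens (types I, II, III, V and XI) assemble into the ropes of connective tissue and of scars, and in the liver they are made mostly by stellate cells and fibroblasts. Type IV forms the sheet-like network of basement membranes, while types XV and XVIII are hybrids of collagen and proteoglycan found at basement membrane zones. Each chain is hydroxylated on proline (P4ha1, P4ha2) and lysine (Plod genes) in the endoplasmic reticulum, folded with the chaperone Hsp47 (Serpinh1), trimmed outside the cell with the help of Pcolce, and crosslinked by lysyl oxidases.

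Each value is a deposited MAS5 signal, a brightness per probe set that was scaled to a trimmed mean of 499.9 on every array. The median signal was 174, 197 and 176 in BPD livers 23, 28 and 36, and 135, 157 and 143 in GFP livers 22, 29 and 31. Differences are BPD minus GFP on the scale log2(signal + 16.3) after each array was centred on its median, with the standard error (SE) of limma, and they understate changes of dim genes. A gene was called higher or lower at a Benjamini-Hochberg adjusted limma p below 0.05 over all 22626 probe sets. After centring, the median over all genes was -0.23, against 0.07 with the deposited scaling and -0.07 after quantile normalization, and 67.2% of the called probe sets were lower, against 33.4% and 45.3% with those scalings. The hepatocyte markers were bright in every liver, the dimmest of them with a mean signal of 7275, and the ratio of 3′ to 5′ signal of Gapdh was -0.36 ± 0.13 in BPD and -0.28 ± 0.11 in GFP livers on the log2 scale (SD, n = 3 each; 2-sided exact permutation p = 0.5, where 0.1 is the smallest possible). In whole liver, more cells of a type and more RNA per cell cannot be told apart.

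The collagen types went different ways in BPD livers. Col1a1 of type I and Col3a1 of type III rose, the widely expressed type IV chains Col4a1 and Col4a2 rose, Col18a1 fell, and most chains of other types passed no test. Of the 47 genes, 7 were called higher and 4 lower. Over all genes 5.7% were called higher and 12.7% lower. The fibrillar chains had 2 higher and 1 lower of 9, the basement membrane chains 3 higher and 1 lower of 8, the other types 0 higher and 2 lower of 19, and the processing genes 2 higher and 0 lower of 11. Relative to the median of all genes, the median log2 difference was 0.91 for the 9 fibrillar chains, 0.56 for the 8 basement membrane chains, 0.73 for processing genes and 0.07 for other types. Within the fibrillar class it was 1.87 for the 6 chains of types I, III and V, which leaves out the lower Col2a1, Col11a1 and Col11a2, and within the basement membrane class 1.21 for the 6 type IV chains, which leaves out Col15a1 and Col18a1. No test was made between these classes.

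**Figure D1:**
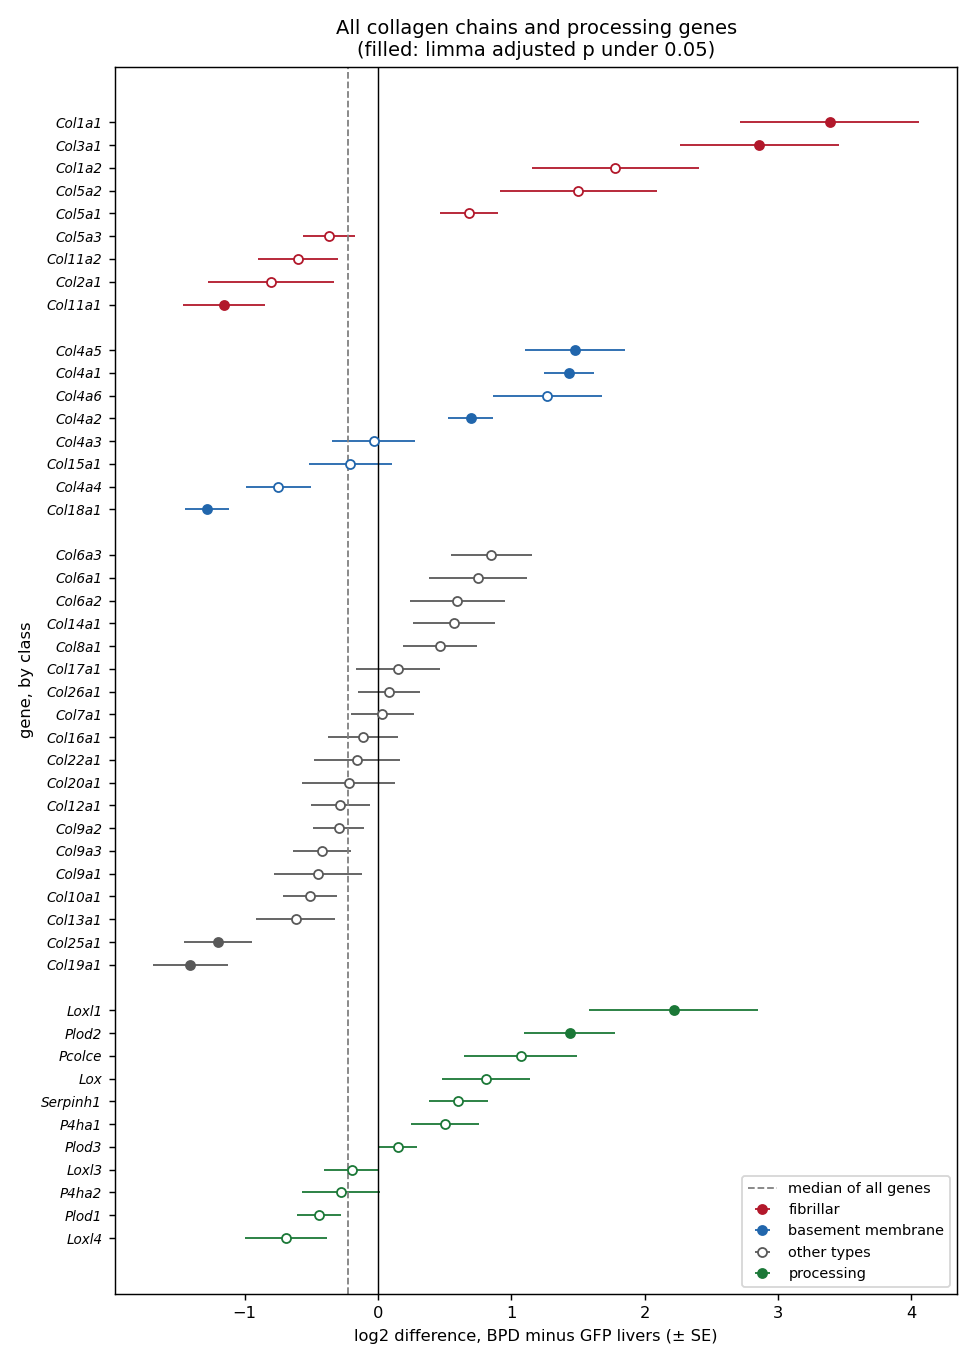
Log2 difference between BPD and GFP livers (BPD minus GFP, x axis) for all 47 genes (rows, grouped by class and sorted within it), with bars for the SE of limma on 3 livers per group. Filled points passed an adjusted p of 0.05, and the dashed line is the median of all genes (-0.23). Col1a1 and Col3a1 lie farthest to the right, and Col19a1, Col18a1 and Col25a1 are the called genes farthest to the left.

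After centring, in 3 of 9 fibrillar genes, 3 of 8 basement membrane genes, 0 of 19 other types and 3 of 11 processing genes, every BPD liver lay above every GFP liver, against 11.3% of all genes. Every BPD liver lay below every GFP liver in 1 of 9 fibrillar, 2 of 8 basement membrane, 4 of 19 other and 2 of 11 processing genes, against 32% of all genes. Only 25 of the 47 genes had a mean log2 value above the 40th percentile of all probe sets, which corresponds to a signal of about 98.8. A mean GFP signal below the constant 16.3 was found for 7 genes. No member was admitted through a filter on signal, since none was applied. The probe set that represents a gene, however, was picked by its mean over the livers of both groups. The group with high values could thus decide the pick. This was so for Col1a1 and Col4a5, through the BPD livers, and for Col19a1, through the GFP livers. Their other probe sets were not called. Of the 25 members with several probe sets, 0 had probe sets called in opposite directions, and 8 were called by some of their probe sets only.

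Type I collagen is built from Col1a1 and Col1a2 chains, and type III from Col3a1 alone. The promoters of Col1a2 and Col3a1 are shown because these chains were high in the same BPD livers. Each window runs from 250 bases before to 50 after the RefSeq start of transcription in GRCm38.p6, 5′ to 3′ on the gene's strand, with Col1a2 at chr6:4505368-4505667 (+) and Col3a1 at chr1:45311288-45311587 (+). Capitals mark the letters of the CCAAT box (CCAAT), of the GC box (GGGCGG) and of the TATA box (TATAAA) on either strand.
Col1a2: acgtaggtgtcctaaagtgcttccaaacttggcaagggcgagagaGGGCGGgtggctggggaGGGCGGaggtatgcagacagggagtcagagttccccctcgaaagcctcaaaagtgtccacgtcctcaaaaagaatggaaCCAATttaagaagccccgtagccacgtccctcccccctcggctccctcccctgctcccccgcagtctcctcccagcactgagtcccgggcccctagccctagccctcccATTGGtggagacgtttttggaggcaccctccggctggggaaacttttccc
Col3a1: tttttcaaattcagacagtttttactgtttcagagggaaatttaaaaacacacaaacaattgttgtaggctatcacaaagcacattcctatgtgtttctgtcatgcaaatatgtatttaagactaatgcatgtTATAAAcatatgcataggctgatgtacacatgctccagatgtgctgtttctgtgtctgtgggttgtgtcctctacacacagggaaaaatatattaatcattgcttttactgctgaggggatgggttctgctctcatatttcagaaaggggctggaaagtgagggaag

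The Col1a2 window held 2 matches to CCAAT and 2 to GGGCGG, and the Col3a1 window held 1 match to TATAAA and none to the other motifs. Over all 32851 mouse windows, 37.4% held CCAAT, 35.7% GGGCGG and 13.6% TATAAA. The 34 members with a window had 37 windows, of which 13 held CCAAT, 23 GGGCGG and 7 TATAAA (35.1%, 62.2% and 18.9%). These matches are letters in a window and were not tied to any factor.

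Col1a1 (probe set 1423669_at) had signals of 779, 821 and 99.6 in BPD livers 23, 28 and 36, and of 16.2, 27.9 and 8.84 in GFP livers 22, 29 and 31. Liver 36 was the BPD liver nearest to the GFP livers, yet still above each of them. The difference was 3.39 ± 0.67 (SE, adjusted p = 0.0124). A second Col1a1 probe set (1455494_at) differed by 1.56 ± 0.51 and was not called (adjusted p = 0.0692), so that choosing the probe set with the highest median ends the call.

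Col3a1 (1427883_a_at) had signals of 5078, 3914 and 814 in BPD livers, and of 361, 304 and 176 in GFP livers. Again liver 36 was the lowest of the BPD livers but stood above every GFP liver. The difference was 2.86 ± 0.60 (adjusted p = 0.0151), and its second probe set also passed (1.83 ± 0.51, adjusted p = 0.0419). Both calls rest on few livers: without BPD mouse 28 the adjusted p was 0.0568 for Col1a1 and 0.0684 for Col3a1, and without GFP mouse 31 it was 0.0515 for Col3a1.

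Col1a2 (1450857_a_at) had signals of 3053, 2174 and 388 in BPD livers, and of 309, 294 and 339 in GFP livers. Here BPD livers 23 and 28 were far above the GFP livers while liver 36 lay close to them. The difference of 1.78 ± 0.62 was not called (adjusted p = 0.0857), nor was that of its second probe set (2.27 ± 0.70, adjusted p = 0.059). On that second probe set (1423110_at) liver 36 had a signal of 88.7, against 43.7, 55.2 and 56.8 in GFP livers. There the groups did not overlap.

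Type V collagen sits inside type I fibrils and regulates their width. Col5a2 (1422437_at) had signals of 729, 577 and 104 in BPD livers, and of 70.2, 125 and 85.6 in GFP livers, so that liver 36 fell inside the GFP range. The difference was 1.50 ± 0.59 (adjusted p = 0.116). On the second Col5a2 probe set (1450625_at) signals were 185, 79.1 and 39.3 in BPD livers, and 24.7, 7.98 and 3.13 in GFP livers. There every BPD liver, liver 36 included, lay above every GFP liver, but it was not called either (1.63 ± 0.49, adjusted p = 0.0561). Col5a1 (1434479_at) had signals of 432, 406 and 255 in BPD livers, and of 153, 186 and 176 in GFP livers. These groups did not overlap, but the difference of 0.68 ± 0.22 missed the threshold (adjusted p = 0.0651), whereas its probe set 1416740_at passed it (1.14 ± 0.32, adjusted p = 0.0451).

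Col5a3, the remaining type V chain, did not show this pattern. Its signals were 220, 285 and 317 in BPD livers, and 267, 355 and 244 in GFP livers, which overlap (-0.37 ± 0.19, adjusted p = 0.22). Col2a1, Col11a1 and Col11a2 are known as the fibrillar chains of cartilage. Col11a1 was dim, with signals of 9.80, 42.1 and 24.5 in BPD livers, and of 49.7, 77.3 and 43.2 in GFP livers, and it was called lower (-1.16 ± 0.31, adjusted p = 0.0362). That call ended with the deposited scaling (adjusted p = 0.142), after quantile normalization (adjusted p = 0.0541) and without any mouse other than BPD 28. The second Col11a1 probe set (1449154_at) was not called, and its groups overlapped (-0.42 ± 0.33, adjusted p = 0.399). Col2a1 (-0.80) and Col11a2 (-0.60) were not called.

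**Figure D2:**
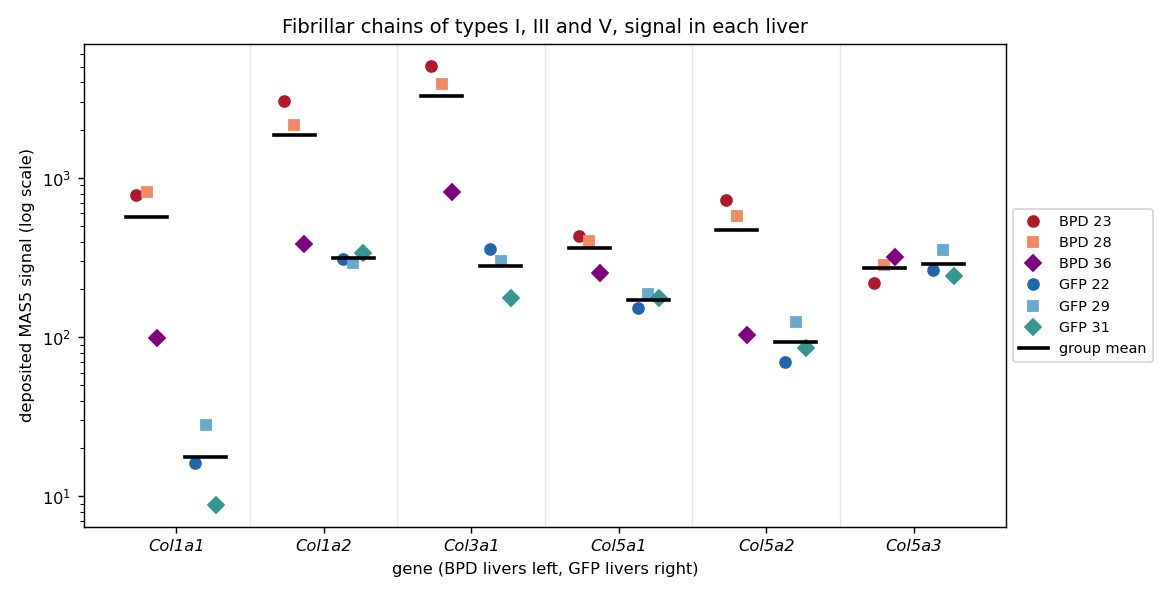
Deposited MAS5 signal (log axis) of the 6 fibrillar chains of types I, III and V in each BPD liver (left in each column) and each GFP liver (right), with bars for group means. For Col1a1, Col1a2, Col3a1 and Col5a2 the BPD livers 23 and 28 lie close together, and BPD liver 36 lies between them and the GFP livers or among these.

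The BPD livers spread widely for these chains. For types I, III and V the median SD over 3 livers was 1.40 on the log2 scale in BPD and 0.23 in GFP livers, whereas over all genes it was 0.23 in both groups. BPD liver 36 was the lowest BPD liver for 5 of these 6 chains, against 30.9% of all genes. On the centred log2 scale, liver 36 lay at least 4-fold below the mean of BPD livers 23 and 28 in 37 of 12393 genes (0.299%). Of these, 4 were Col1a1, Col1a2, Col3a1 and Col5a2. The crosslinking enzyme Loxl1 was another.

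With BPD mouse 36 left out, 5 fibrillar chains were called higher and 0 lower (Col1a1, Col1a2, Col3a1, Col5a1 and Col5a2 rose). Over all genes 6.53% were then called higher and 12.4% lower. Col1a1 then differed by 4.32 ± 0.29 (adjusted p = 0.000346), Col3a1 by 3.65 ± 0.31 (adjusted p = 0.000733), Col1a2 by 2.65 ± 0.22 (adjusted p = 0.000733) and Col5a2 by 2.31 ± 0.26 (adjusted p = 0.00164). The choice to leave out this mouse was 1 of 6 made in turn, and it leaves 2 BPD livers. It is given in detail because liver 36 was low for these same chains. Larger differences and smaller p-values without it follow from that pick and add no support for a rise. The same limit applies below to results without mouse 36 for genes in which liver 36 was the lowest BPD liver. Over the 6 omissions, the fibrillar genes called higher numbered 0 to 5.

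The genes for Col4a1 and Col4a2 lie head to head on mouse chromosome 8 and are read in opposite directions from a shared promoter region. They are shown for that reason and because they were called in the same direction. In GRCm38.p6 the Col4a1 window is chr8:11312777-11313076 (-) and the Col4a2 window chr8:11312555-11312854 (+). Their RefSeq start sites are 21 bases apart, and capitals mark the 78 bases that both windows hold, each written on its own gene's strand.
Col4a1: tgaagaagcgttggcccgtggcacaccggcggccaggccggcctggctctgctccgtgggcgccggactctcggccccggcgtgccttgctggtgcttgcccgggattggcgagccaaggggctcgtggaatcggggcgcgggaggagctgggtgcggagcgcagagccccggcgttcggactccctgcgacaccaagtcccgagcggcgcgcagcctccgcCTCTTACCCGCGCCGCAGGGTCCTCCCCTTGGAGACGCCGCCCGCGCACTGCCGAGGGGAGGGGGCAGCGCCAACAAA
Col4a2: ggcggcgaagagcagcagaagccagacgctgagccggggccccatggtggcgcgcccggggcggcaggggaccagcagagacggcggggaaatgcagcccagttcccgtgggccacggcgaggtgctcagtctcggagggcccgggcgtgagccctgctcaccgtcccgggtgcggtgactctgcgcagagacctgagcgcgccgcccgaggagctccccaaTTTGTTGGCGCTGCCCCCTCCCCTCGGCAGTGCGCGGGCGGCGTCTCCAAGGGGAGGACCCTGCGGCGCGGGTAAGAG

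Col4a1 (1452035_at) had signals of 2631, 2389 and 1632 in BPD livers, and of 662, 640 and 621 in GFP livers. All BPD livers, liver 36 included, stood well above all GFP livers. The difference was 1.44 ± 0.19 (adjusted p = 0.00276), a 2.70-fold rise, and its second probe set gave 1.13 ± 0.18 (adjusted p = 0.00601). Col4a1 was called under all 17 alternative settings, with differences between 1.27 and 1.74.

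Col4a2 (1424051_at) had signals of 1084, 874 and 796 in BPD livers, and of 444, 467 and 434 in GFP livers, again without overlap. It rose by 0.69 ± 0.17 (adjusted p = 0.0249). Leaving out any mouse other than BPD 36 moved the adjusted p to between 0.0569 and 0.0694. For Col4a1 and Col4a2, liver 36 kept most of the difference seen in the other BPD livers. It stood 1.07 above the GFP mean for Col4a1, against 1.62 for the mean of livers 23 and 28, and 0.55 against 0.77 for Col4a2.

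The remaining type IV chains form networks of restricted tissues such as the filter of the kidney. Col4a5 (1425476_at) had signals of 281, 310 and 101 in BPD livers, and of 50.8, 43.3 and 54.2 in GFP livers. It was called higher (1.48 ± 0.37, adjusted p = 0.0308), but its second probe set was not (0.68 ± 0.28, adjusted p = 0.131), and the call ended without any mouse other than BPD 36. Unlike for Col4a1 and Col4a2, liver 36 kept little of the Col4a5 difference. It stood 0.58 above the GFP mean, against 1.93 for the mean of livers 23 and 28. Col4a6 differed by 1.27 ± 0.41 (adjusted p = 0.0672) and its 2 probe sets had opposite signs. Col4a3 (-0.03) and Col4a4 (-0.75) were not called, and the mean signal of Col4a4 in GFP livers was below the added constant.

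Within type IV the median SD was 0.31 in BPD and 0.32 in GFP livers on the log2 scale, but the SD was larger in BPD livers for 4 of 6 chains. Among them were the 3 called chains, with 0.35 in BPD and 0.12 in GFP livers for Col4a1, 0.27 and 0.07 for Col4a2, and 0.78 and 0.21 for Col4a5. On the centred log2 scale, none of the 8 basement membrane genes was 4-fold lower in BPD liver 36 than in the mean of the other BPD livers. Without mouse 36 the counts stayed at 3 higher and 1 lower of 8. Whether the types differ in how liver 36 behaves was not tested.

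Col18a1, whose C-terminal fragment is endostatin, is made in liver largely by hepatocytes. RefSeq gives it start sites 52825 bases apart on chromosome 10, and both windows are printed because the probe sets used here do not name the start of the transcripts they read. In GRCm38.p6 the outer window is chr10:77166481-77166780 (-) and the inner one chr10:77113656-77113955 (-), with capitals as for Col1a2.
Col18a1, outer start: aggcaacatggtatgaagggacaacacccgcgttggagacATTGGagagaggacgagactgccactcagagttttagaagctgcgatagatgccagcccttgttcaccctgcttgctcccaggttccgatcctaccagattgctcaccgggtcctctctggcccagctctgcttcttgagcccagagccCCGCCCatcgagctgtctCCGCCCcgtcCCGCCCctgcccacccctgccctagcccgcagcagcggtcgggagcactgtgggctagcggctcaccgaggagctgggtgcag
Col18a1, inner start: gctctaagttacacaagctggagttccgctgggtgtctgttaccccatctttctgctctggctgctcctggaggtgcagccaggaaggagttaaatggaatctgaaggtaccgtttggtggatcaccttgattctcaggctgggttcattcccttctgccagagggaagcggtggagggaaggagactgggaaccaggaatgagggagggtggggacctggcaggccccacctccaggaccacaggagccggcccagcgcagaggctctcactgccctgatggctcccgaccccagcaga

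The outer window held 1 match to CCAAT and 3 to GGGCGG, and the inner window none of the 3 motifs. Col18a1 (1418237_s_at) had signals of 3786, 3320 and 3394 in BPD livers, and of 6599, 6443 and 7742 in GFP livers. The 3 BPD livers lay close together and all below the GFP livers. The difference was -1.28 ± 0.16 (adjusted p = 0.00253), and the second probe set (1426955_at) gave -1.27 ± 0.16 (adjusted p = 0.00227). Col18a1 was called lower under all 17 alternatives, with differences between -1.38 and -0.79.

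Hepatocyte markers were lower in the same livers: 7 of 9 were called lower and 0 higher, and their summed signal ranged from 95114 to 107626 in BPD and from 142411 to 150592 in GFP livers. Their part in the fall of Col18a1 was not tested. Col15a1, the related chain of type XV, had signals of 93.7, 69.7 and 74.7 in BPD livers, and of 101, 48.7 and 77.1 in GFP livers. The groups overlapped (-0.21 ± 0.31, adjusted p = 0.664), and the sign turned with the deposited scaling (0.09) and without GFP mouse 22 (0.03).

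**Figure D3:**
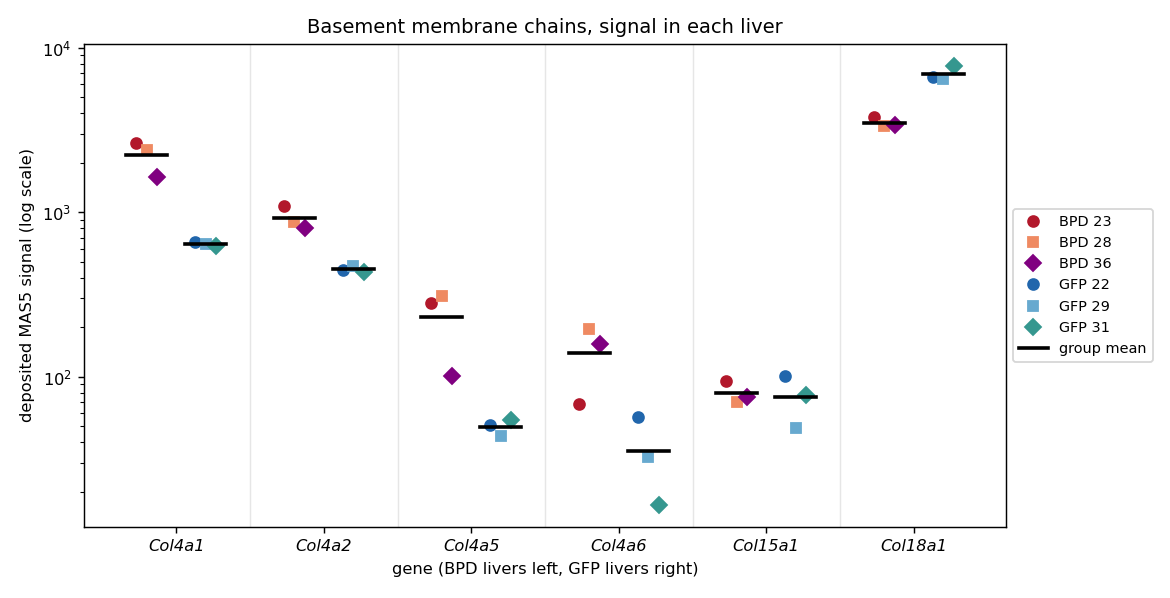
Deposited MAS5 signal (log axis) of 6 basement membrane chains in each BPD liver (left in each column) and each GFP liver (right), with bars for group means. Col4a1 and Col4a2 are higher in every BPD liver, Col18a1 is lower in every BPD liver, and Col15a1 overlaps.

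Of the 19 chains of other types, 8 had a mean signal above 98.8. They included the 3 type VI chains, which make beaded filaments around cells, and Col14a1 of type XIV, which coats fibrils. None of these 4 was called with all 6 livers. Col6a1 had signals of 380, 309 and 122 in BPD livers, and of 88.9, 120 and 123 in GFP livers (0.75 ± 0.36, adjusted p = 0.186). Col6a2 had signals of 469, 456 and 199 in BPD livers, and of 221, 228 and 115 in GFP livers (0.60 ± 0.35, adjusted p = 0.268). In each case BPD livers 23 and 28 were above all GFP livers and liver 36 was among them.

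Col6a3 had signals of 628, 762 and 312 in BPD livers, and of 234, 296 and 175 in GFP livers (0.85 ± 0.30, adjusted p = 0.0886). On the raw signal liver 36 was just above the GFP livers, but after centring the groups overlapped. Col14a1 had signals of 1468, 1119 and 610 in BPD livers, and of 599, 645 and 407 in GFP livers (0.57 ± 0.31, adjusted p = 0.226). Without mouse 36, 3 chains of the other types were called higher: Col6a1 (1.19 ± 0.24, adjusted p = 0.0164), Col6a3 (1.20 ± 0.22, adjusted p = 0.0106) and Col14a1 (0.90 ± 0.24, adjusted p = 0.0432).

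The 2 chains of other types called lower were Col19a1, which was dim, and Col25a1. Col19a1 had signals of 5.64, 10.4 and 16.9 in BPD livers, and of 35.8, 32.4 and 60.0 in GFP livers (-1.41 ± 0.28, adjusted p = 0.0124). Its brighter values lay in the GFP livers without overlap, yet its second probe set gave -0.32 ± 0.31 (adjusted p = 0.491), and without BPD mouse 28 the adjusted p was 0.0583. Col25a1, a membrane-bound collagen known from brain, had signals of 108, 105 and 61.4 in BPD livers, and of 139, 196 and 215 in GFP livers (-1.20 ± 0.26, adjusted p = 0.0165). Its call ended with the deposited scaling (adjusted p = 0.0659), without BPD mouse 28 (0.0576) and without GFP mouse 31 (0.0566). The remaining 13 chains of this class, among them types VII, VIII, IX, XII and XVI, had differences between -0.62 and 0.47 and none was called.

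Among the processing genes, only Plod2 and Loxl1 were called on the probe sets that represent them. Plod2 hydroxylates the telopeptide lysines that enter stable crosslinks. Its signals (1416686_at) were 132, 104 and 62.4 in BPD livers, and 11.2, 11.6 and 33.1 in GFP livers, without overlap (1.44 ± 0.34, adjusted p = 0.0249). A second probe set gave 1.43 ± 0.50 (adjusted p = 0.0832), and without BPD mouse 23 or 28 or GFP mouse 22 or 29 the adjusted p of the first was between 0.0711 and 0.087. Plod1 and Plod3 were not called. Plod1 had signals of 545, 577 and 434 in BPD livers, and of 584, 520 and 608 in GFP livers (-0.44 ± 0.17, adjusted p = 0.105). Plod3 had signals of 928, 994 and 755 in BPD livers, and of 622, 655 and 653 in GFP livers. On that raw signal every BPD liver stood above the GFP livers, but after centring the groups overlapped (0.15 ± 0.14, adjusted p = 0.477). With the deposited scaling Plod3 differed by 0.45 ± 0.13 (adjusted p = 0.06).

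Loxl1, a lysyl oxidase best known for elastic fibres, had signals of 265, 274 and 28.3 in BPD livers, and of 9.33, 12.3 and 10.3 in GFP livers. Liver 36 lay above all GFP livers, at 2.67 times their mean signal, and livers 23 and 28 lay far above it. The difference was 2.22 ± 0.63 (adjusted p = 0.0464), and without mouse 36 it was 3.10 ± 0.26 (adjusted p = 0.000725). The call ended without any other mouse, after quantile normalization (adjusted p = 0.0541) and under 3 further settings.

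Lox, the main crosslinking enzyme of fibrillar collagen, had 3 probe sets that disagreed on the call. The one that represents the gene, with the highest mean on the log2 scale (1416121_at), had signals of 94.4, 102 and 42.2 in BPD livers, and of 22.4, 43.3 and 16.4 in GFP livers (0.81 ± 0.33, adjusted p = 0.125). The others passed, with 1.68 ± 0.48 (1437903_at, adjusted p = 0.0458) and 1.62 ± 0.23 (1448228_at, adjusted p = 0.00338). On 1448228_at the signals were 69.7, 80.2 and 48.8 in BPD livers, and 5.14, 7.52 and 3.39 in GFP livers, which do not overlap. Loxl3 (-0.20 ± 0.21) and Loxl4 (-0.69 ± 0.31) were not called. The sign of Loxl3 turned with the deposited scaling (0.10), and the second probe set of Loxl4 had the opposite sign (0.60 ± 0.27).

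Serpinh1 encodes Hsp47, the chaperone of procollagen. On the probe set that represents it (1456733_x_at) the signals were 412, 395 and 246 in BPD livers, and 159, 212 and 159 in GFP livers. The groups did not overlap, but the difference missed the threshold (0.60 ± 0.22, adjusted p = 0.0969). The other probe set (1450843_a_at) had signals of 488, 498 and 229 in BPD livers, and of 80.5, 114 and 98.5 in GFP livers, and it passed (1.52 ± 0.29, adjusted p = 0.0105).

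Pcolce strengthens the cleavage of the C-propeptide of procollagen. Its signals (1437165_a_at) were 868, 554 and 209 in BPD livers, and 156, 173 and 184 in GFP livers. As for Col1a2, liver 36 was close to the GFP livers, and after centring the groups overlapped (1.07 ± 0.43, adjusted p = 0.119). Of the prolyl hydroxylase subunits, P4ha1 had signals of 241, 188 and 177 in BPD livers, and of 75.3, 156 and 104 in GFP livers (0.50 ± 0.26, adjusted p = 0.201). P4ha2 differed by -0.28 ± 0.29 (adjusted p = 0.526), and its sign turned with the deposited scaling (0.02). Without mouse 36, 5 processing genes were called higher and 0 lower: Loxl1, Plod2, Pcolce (1.60 ± 0.26, adjusted p = 0.0063), Serpinh1 (0.81 ± 0.20, adjusted p = 0.0329) and Lox (1.12 ± 0.31, adjusted p = 0.045).

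**Figure D4:**
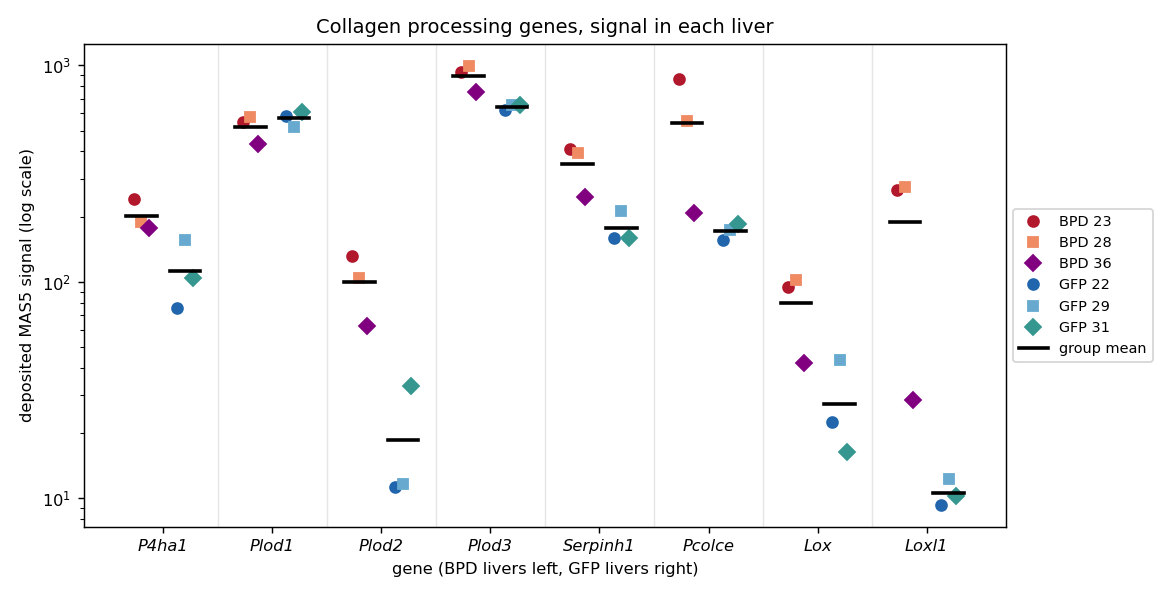
Deposited MAS5 signal (log axis) of 8 collagen processing genes in each BPD liver (left in each column) and each GFP liver (right), with bars for group means. Plod2 and Loxl1 passed the test on the probe sets shown. BPD liver 36 lies near the GFP livers for Pcolce and far below the other BPD livers for Loxl1. On the plotted signal Plod1 overlaps between the groups. Plod3 is higher in every BPD liver on this signal, but its groups overlapped after centring.

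Genes that act beside collagen were read from lists, and their counts stand beside 5.7% of all genes called higher and 12.7% lower. With so few members in each list, nothing particular to a list is read from them. Of 15 measured further collagen biosynthesis genes, 0 were called higher and 3 lower: Mia3, the export receptor for procollagen (-0.92 ± 0.17, adjusted p = 0.00997), Bmp1, the enzyme that cuts the C-propeptide (-0.75 ± 0.18, adjusted p = 0.0241), and P4hb, the partner subunit of the prolyl hydroxylases (-0.62 ± 0.16, adjusted p = 0.0324). These are also genes of wider use in secretory cells. Of 16 measured laminins, nidogens and related basement membrane genes, 1 was called higher, the linker Nid1 (1.11 ± 0.32, adjusted p = 0.0465), and 3 lower: Smoc1 (-1.41 ± 0.26), Lama3 (-1.18 ± 0.29) and Lama5 (-1.17 ± 0.31).

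Of 29 measured matrix glycoproteins and proteoglycans, 0 were called higher and 2 lower, namely Ecm1 (-0.75 ± 0.14) and Vtn (-0.66 ± 0.16), and 9 were called higher and 2 lower without mouse 36. Sparc, which binds collagen, had signals of 3099, 2180 and 892 in BPD livers, and of 436, 595 and 705 in GFP livers. On the raw signal every BPD liver stood above the GFP livers, but the difference just missed the threshold (1.35 ± 0.40, adjusted p = 0.0504). Of 20 measured collagen receptors and collagen-degrading enzymes, 2 were called higher and 1 lower. The collagenase Mmp13 had signals of 200, 216 and 218 in BPD livers, and of 20.8, 23.1 and 1.06 in GFP livers (2.65 ± 0.33, adjusted p = 0.00235), so that liver 36 did not stand apart for it. The membrane-bound collagenase Mmp14 rose 2.01-fold (adjusted p = 0.0091), and the lysosomal protease Ctsl was called lower (-0.78 ± 0.19, adjusted p = 0.0275).

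The medians of collagen classes and of cell type marker lists were read liver by liver, and whether they move together was not tested. Relative to the median of all genes, the median log2 difference of types I, III and V from the GFP mean was 2.97, 2.45 and 0.35 in BPD livers 23, 28 and 36. For type IV it was 0.97, 1.26 and 0.76 in the same livers, and for processing genes 1.02, 0.58 and 0.20. In GFP livers these medians lay between -0.15 and 0.20 for types I, III and V, between -0.05 and 0.07 for type IV and between -0.09 and 0.05 for processing genes. The type IV median was thus above the GFP livers in all 3 BPD livers, although Col4a3 and Col4a4 lay below the GFP mean in liver 36 (-0.19 and -0.83). The median of types I, III and V was far above the GFP livers in livers 23 and 28 and a little above them in liver 36.

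The 16 markers of activated stellate cells and fibroblasts had medians of 1.43, 1.31 and 0.14 in BPD livers, and between -0.14 and 0.09 in GFP livers. With all livers 3 of 16 were called higher (Lgals1, S100a6 and Vim) and 0 lower, and without mouse 36, 10 were. Their summed signal was 11251 to 21035 in BPD and 6297 to 7187 in GFP livers. Acta2, the actin of activated stellate cells, had signals of 1397, 1988 and 428 in BPD livers, and of 601, 275 and 370 in GFP livers (1.09 ± 0.51, adjusted p = 0.173). Lrat, the vitamin A enzyme of quiescent stellate cells, had signals of 159, 140 and 68.5 in BPD livers, and of 120, 94.9 and 130 in GFP livers (-0.28 ± 0.31, adjusted p = 0.556). No marker was listed at 0, but the stellate cell factor Hand2 was dim, with a mean signal of 7.47 over all livers. The part of these markers in the collagen differences was not tested.

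The 8 neutrophil markers had medians of 2.73, 2.98 and 0.59 in BPD livers, and between -0.15 and 0.22 in GFP livers, with 3 called higher, 0 lower and summed signals of 2031 to 8518 in BPD and 618 to 898 in GFP livers. The 7 measured cholangiocyte markers had medians of 2.10, 1.39 and -0.12 in BPD livers, and between -0.08 and 0.32 in GFP livers. Of them, 2 were called higher (Cd24a and Krt23) and 0 lower, and only 4 of the 7 differences were positive. Their sums were 1627 to 2353 in BPD and 239 to 364 in GFP livers, but most of each BPD sum was Cd24a alone. Its signals were 1483, 1531 and 1277 in BPD livers, and 131, 71.4 and 51.2 in GFP livers. Liver 36 was the lowest BPD liver in both lists. It was also the lowest for types I, III and V, type IV, processing genes and the stellate cell, macrophage and endothelial lists. For hepatocyte markers it was not the lowest.

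The 11 macrophage markers had medians of 1.87, 1.74 and 1.10 in BPD livers, and of -0.05, 0.87 and -0.82 in GFP livers 22, 29 and 31, so that the GFP livers varied among themselves too. Of these, 5 were called higher and 0 lower, with sums of 19792 to 38287 in BPD and 4810 to 17257 in GFP livers. The summed signal of the 13 endothelial markers overlapped, with 4042 to 5925 in BPD and 3304 to 5327 in GFP livers, and so did 11 of the markers. Only Lyve1, a marker of sinusoidal and lymphatic endothelium, was called (1.69 ± 0.38, adjusted p = 0.0193). The part of these cell markers in the differences of Col4a1 and Col4a2 was not tested.

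**Figure D5:**
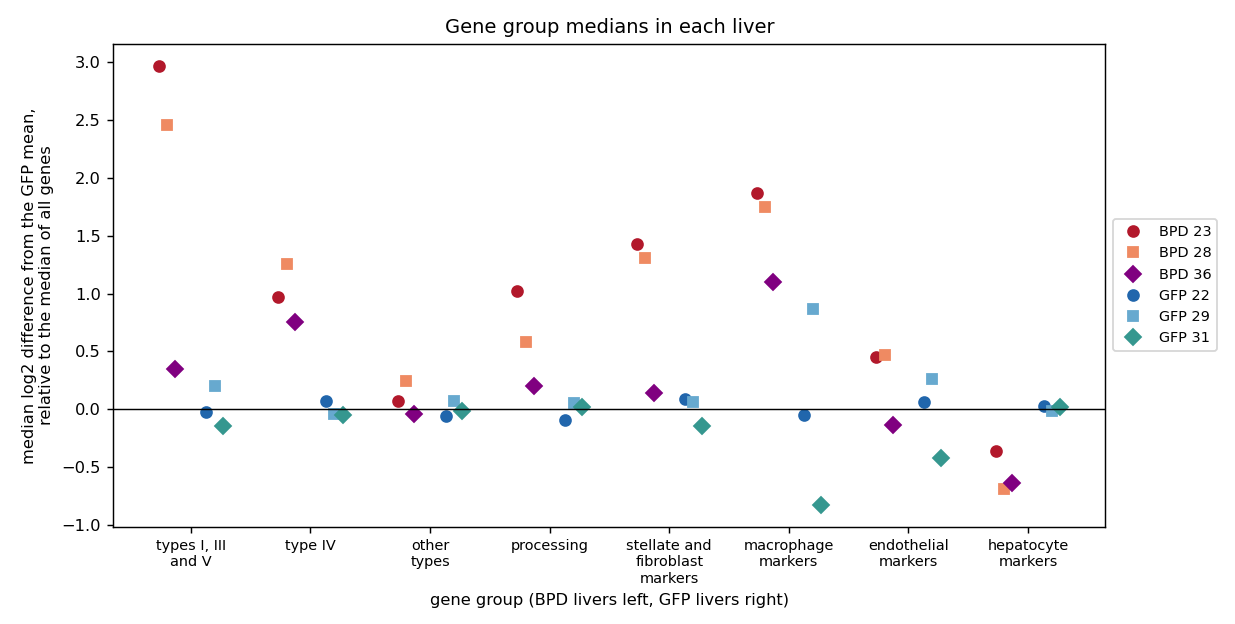
Median log2 difference from the GFP mean, relative to the median of all genes (y axis), for collagen classes and cell type marker lists (x axis) in each BPD liver (left) and each GFP liver (right). BPD liver 36 lies near the GFP livers for types I, III and V (0.35) and for stellate cell and fibroblast markers (0.14), but apart from them for type IV (0.76).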

How the data were processed

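Per the submitters' processing notes, the deposited signal intensities were made with MAS5 by the authors, with version and target not stated in the sources used here. The table holds 1 intensity per probe set for each of 6 arrays, with 22690 probe sets, of which 64 are controls and 22626 were tested, and 0 columns were left unused. The platform annotation gives 1 symbol to 20380 probe sets, several to 691 and none to 1555. Entrez identifiers of 20351 matched the GRCm38.p6 gene table and changed 0 symbols. Groups and mouse numbers came from the sample titles. Each array is a separate mouse, so the p-values rest on the spread between mice.

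Values were analysed as log2(signal + 16.27), a constant of 10% of the median of 162.7, centred on each array's median, without a filter on low values. The comparison used limma (version 3.58.1, R 4.3.3) with lmFit and trended eBayes, 2-sided, on 3 against 3 arrays, with 4 residual and 4.60 prior degrees of freedom. The fit was tested on simulated data. A gene is represented by its probe set with the highest mean log2 value over the arrays of both groups. The number of arrays limits the precision. Members, lists and the rule for named genes (the common chains, all processing genes, up to 5 called genes per class and up to 4 list members by p) were chosen with earlier results of these data known. Acta2, Lrat and Hand2 were named beyond that rule, after their values were seen. Alternatives changed the scaling, constant, filter, variance model, probe set choice and mice. The promoter sequences are RefSeq's. No scan dates or slides were used, as the table gives none.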

Additional observations from a re-analysis of the deposited data

How the results depend on the processing

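No paired analysis was possible because the mouse numbers of the BPD and GFP groups are not shared. Of 468 recomputed differences of named genes under 17 alternatives, 409 kept their direction and side of the threshold, 41 lost a call, 14 gained one and 4 turned sign. The sign turned for Col15a1 (0.092), Loxl3 (0.10) and P4ha2 (0.022) with the deposited scaling and for Col15a1 (0.030) without GFP mouse 22, while leaving out 1 mouse at a time gave Col15a1 values from -0.49 to 0.030. Over all probe sets 1193 were called higher and 2443 lower. The deposited scaling gave 2257 higher and 1134 lower, 0 fibrillar genes lower and 1 of the other types lower. Quantile normalization gave 1361 probe sets lower, 0 fibrillar genes lower and 1 processing gene higher. A constant of 20% of the median gave 2 basement membrane genes lower and 1 processing gene higher. With the filter on low values, which kept 13575 probe sets, 0 fibrillar genes and 1 of the other types were lower and 0 processing genes higher. Without the intensity trend, and with the Gapdh ratio as covariate, 1 processing gene was higher, and the covariate left 1540 probe sets lower. With the probe set of highest median, 1 fibrillar gene was higher and 1 of the other types lower. Type IV alone had 0 genes lower. With 1 mouse left out at a time, probe sets called higher numbered 511 to 1323 and lower 907 to 2399. Fibrillar genes then numbered 0 to 5 higher and 0 to 1 lower, basement membrane genes 1 to 3 higher and 1 lower, other types 0 to 3 higher and 0 to 2 lower, and processing genes 0 to 5 higher and 0 lower. The cause of these shifts was not tested.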
